A study of Mus musculus with 10 samples.

Results

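The interleukin-6 family of cytokines and receptors was followed in the injured mouse brain through 10 genes, 6 ligands (Il6, Lif, Osm, Il11, Clcf1 and Cntf) and 4 receptor chains (Osmr, Lifr, Il6ra and Il6st). A probe set, the group of oligonucleotides that reads 1 transcript on an Affymetrix array, was assigned to a member when the platform annotation gave it that single gene symbol. This held for 20 of 45101 probe sets and for 9 of the 10 genes, out of 18193 genes measured. Cntf had no probe set of its own. Where a gene had several probe sets, the one with the highest mean over all arrays was kept, and the others are described beside it.

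Total RNA came from whole brain hemispheres of male mice killed 24 h after surgery. WT (wild-type) and Hsp72Tg mice, the latter overexpressing the heat shock protein Hsp72, had either MCAO (occlusion of the middle cerebral artery, a stroke model) or sham surgery. The hemisphere on the operated side was taken in every group. WT sham had 2 arrays, Hsp72Tg sham 2, WT MCAO 3 and Hsp72Tg MCAO 3, and each genotype's sham arrays served as its controls. The labels name no strain, age, transgene promoter or founder line. The labels number the arrays of a group without stating 1 mouse per array, so p-values measure the spread between these arrays. Arrays are named by group and number, as in Hsp72Tg MCAO 1.

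Cytokines of this family signal through the shared chain gp130, the product of Il6st. Interleukin-6 and interleukin-11 bind their own alpha chains, of which Il6ra is the one for interleukin-6, and then pair gp130 with gp130. Leukaemia inhibitory factor (Lif) and oncostatin M (Osm) instead bring gp130 together with Lifr or Osmr, and the complexes activate Janus kinases and the transcription factor STAT3, which induces its own inhibitor Socs3. In injured brain the family is known for acting on astrocytes, microglia, vessels and neurons.

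Promoter sequence is shown for the 4 members with the largest changes after MCAO. The sequences are from RefSeq, build GRCm38.p6, read 5′ to 3′ on the strand of the gene. For Il6, Lif and Il11 they are the 250 bases before the annotated start, and for Osmr 30 bases around it. Capitals mark matches to TGANTCA, the AP-1 motif with any base (N) in the middle, and, in Il6, to a motif of the inflammatory factor NF-kappaB.
Il6 (chr5:30012864-30013113, plus strand): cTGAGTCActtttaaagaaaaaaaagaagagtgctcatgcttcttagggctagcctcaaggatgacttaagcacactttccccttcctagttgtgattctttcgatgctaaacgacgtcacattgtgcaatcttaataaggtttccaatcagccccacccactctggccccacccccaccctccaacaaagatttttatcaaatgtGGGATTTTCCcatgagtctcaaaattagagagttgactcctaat
Lif (chr11:4257318-4257567, plus strand): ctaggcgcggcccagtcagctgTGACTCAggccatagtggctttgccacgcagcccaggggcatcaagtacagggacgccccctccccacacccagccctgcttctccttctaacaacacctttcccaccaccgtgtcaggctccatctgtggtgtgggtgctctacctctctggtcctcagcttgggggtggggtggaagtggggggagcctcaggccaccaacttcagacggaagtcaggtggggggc
Il11 (chr7:4778142-4778391, minus strand): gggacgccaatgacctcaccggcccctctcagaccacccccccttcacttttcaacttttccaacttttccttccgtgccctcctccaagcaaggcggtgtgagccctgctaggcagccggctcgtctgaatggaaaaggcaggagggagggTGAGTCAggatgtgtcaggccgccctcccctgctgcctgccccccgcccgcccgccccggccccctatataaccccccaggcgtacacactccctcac
Osmr (chr15:6874296-6874325, minus strand): cacttgccccgtagtTGATTCAtagctggg

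Promoter windows from 250 bases before to 50 bases after a start were on file for 8 of the 10 genes, in 10 windows. TGANTCA, a loose form of the site of the stress-induced Fos and Jun proteins, was present on either strand in 5 of these windows. The share over all 32851 windows was 7.81%. The windows with a match belonged to Il6, Il11, Lif, Osmr and Cntf. The letters were TGAGTCA in Il6 and Il11, TGACTCA in Lif and Cntf, and TGATTCA in Osmr, where the middle base was neither C nor G. In Il6 the match began 249 bases before the start, in Lif 228, in Il11 98 and in Cntf 245, and in Osmr it covered bases 4 to 10 of the transcript. The NF-kappaB letters stood 44 bases before the start of Il6 and in none of the other member windows (1.63% of all windows). The letters TTCNNNGAA, a STAT site, were in 0 of 10 member windows and in 8.3% of all windows. GAANNTTC, a core of the heat shock element, was found in Il6st alone, 228 bases before its start (7.86% of all windows). The 4 searches did not overlap one another at these matches, and a match describes letters, not binding. Il11 had 2 windows on file, and the one with the match is shown.

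The values are log2 expression values, so values of different genes are not comparable as amounts. All 10 arrays correlated with one another across genes at r of 0.977 to 0.997. Hsp72Tg MCAO 1 stood apart from the other 5 MCAO arrays on the first principal component (50.3% of variance), at -12.9 against 11.7 to 32.3, with the sham arrays at -23.7 to -20.7. WT sham 1 carried a cerebellar signal, with a mean of 9.67 over 5 cerebellar marker genes against 6.91 to 7.24 in the other arrays. Hspa1a and Hspa1b, which encode Hsp72, differed by -0.09 (SE 0.64) and -0.29 (SE 0.51) between Hsp72Tg sham and WT sham. Between Hsp72Tg MCAO and WT MCAO they differed by 0.84 (SE 0.52) and 0.56 (SE 0.41). None of these differences passed, so the 2 genes did not separate the genotypes. No label says whether the probes of Hspa1a and Hspa1b match the transcript of the transgene, and groups are called by their labels. In whole hemispheres, fewer cells of a type and less RNA per cell cannot be told apart.

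**Figure D1:**
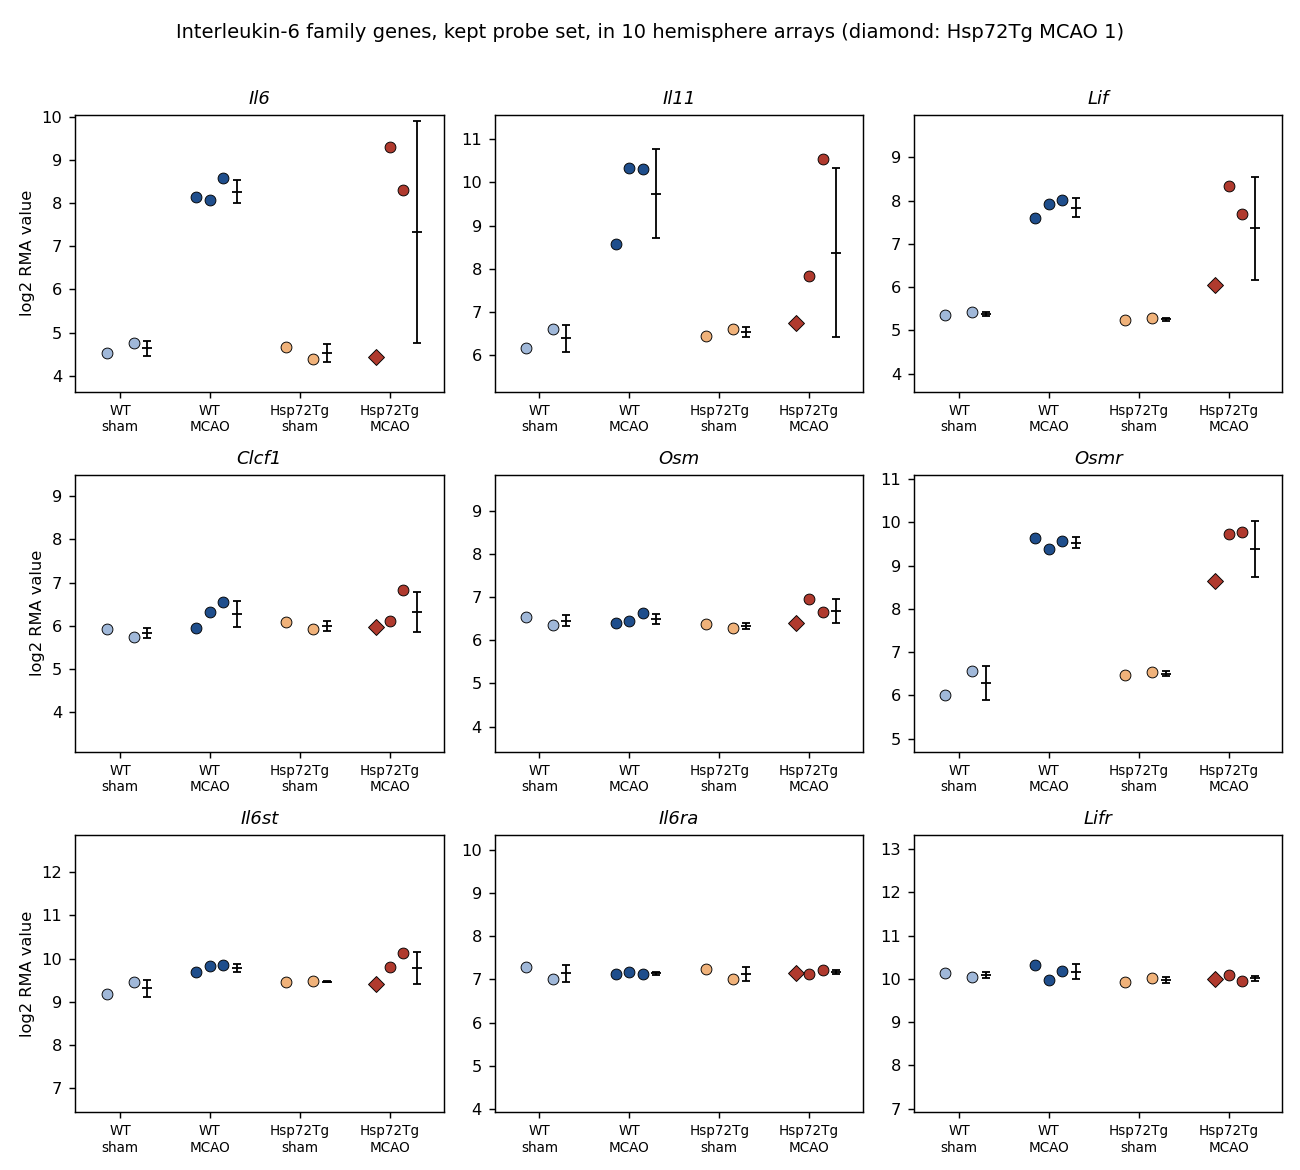
Log2 expression value (vertical axis) of the 9 measured family genes in the 4 groups (horizontal axis), 1 point per array, with mean ± SD as the bar beside them and diamonds for Hsp72Tg MCAO 1. All panels span the same number of log2 units. Lif, Il11 and Osmr lie higher in all 6 MCAO arrays than in all 4 sham arrays, and Il6 and Il6st in the 5 other than the diamond. The diamond lies among the sham arrays for Il6 and well above them for Osmr.

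After MCAO, Osmr rose in both genotypes, by 3.23 (SE 0.31) in WT and 2.88 (SE 0.31) in Hsp72Tg on the log2 scale, a 9.41-fold and a 7.35-fold increase. Over both genotypes Lif rose as well, by 2.28 (SE 0.36), or 4.85-fold. Il6 and Il11 had changes of similar size, 3.21 (SE 0.76) and 2.60 (SE 0.65), which did not pass the test (limma, Benjamini-Hochberg adjusted p = 0.0716 and 0.0803). Among the other receptor chains, Il6st was slightly higher after MCAO without passing, while the kept probe sets of Lifr and Il6ra changed by 0.05 and 0.02 without passing.

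A gene passed at a limma adjusted p under 0.05 over all 18193 genes. In WT 1 of 9 members passed (Osmr) where 0.055% of all genes did. In Hsp72Tg the count was also 1 of 9 (Osmr), against 0.022% of all genes. Over both genotypes, the average of the 2 changes, 2 of 9 passed (Osmr and Lif), against 1.46% of all genes. Ranked by this average change from highest to lowest, Il6 was number 7, Osmr 10, Il11 25 and Lif 37 of 18193 genes. The change and rank of Il6 rest on sham readings under the arrays' lower quartile, where a probe set may read mainly background, so they may be understated. Counted by array, all WT MCAO values lay above all WT sham values in 6 of 9 members (16.4% of genes), namely Il6, Lif, Il11, Clcf1, Osmr and Il6st. In Hsp72Tg this held for 4 of 9 (Lif, Osm, Il11 and Osmr; 9.05% of genes), and over both genotypes for 3 of 9 (Lif, Il11 and Osmr; 3.19% of genes). The average over both genotypes uses the same arrays as the single-genotype comparisons and is not independent of them.

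Il6, the acute-phase cytokine made by glia, endothelium and infiltrating cells, read 4.52 and 4.77 in WT sham and 4.68 and 4.39 in Hsp72Tg sham. It read 8.15, 8.06 and 8.57 in WT MCAO. In Hsp72Tg MCAO it read 4.43, 9.29 and 8.29. The other 5 MCAO arrays were thus high and did not overlap with sham, while Hsp72Tg MCAO 1 lay inside the sham range, and the highest value of all was in its own group. The sham values and that of Hsp72Tg MCAO 1 lay under the array's lower quartile (5.14 to 5.21), where a probe set may read mainly background. The change was 3.62 (95% interval 1.22 to 6.02, adjusted p = 0.266) in WT and 2.80 (0.40 to 5.20, adjusted p = 0.383) in Hsp72Tg in limma. WT MCAO had the highest group mean, 8.26 ± 0.27 (SD, n = 3), followed by Hsp72Tg MCAO at 7.34 ± 2.57 (n = 3), WT sham at 4.64 ± 0.17 (n = 2) and Hsp72Tg sham at 4.53 ± 0.20 (n = 2). The WT and Hsp72Tg means did not differ beyond their spread after either surgery.

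Il11, a cytokine of stromal and epithelial injury whose alpha chain is Il11ra1, read 6.18 and 6.61 in WT sham and 6.45 and 6.61 in Hsp72Tg sham. After MCAO it read 8.57, 10.34 and 10.32 in WT and 6.74, 7.84 and 10.55 in Hsp72Tg. All 6 MCAO arrays were above the sham arrays, but Hsp72Tg MCAO 1 only by 0.12 over the highest of them. The 3 Hsp72Tg MCAO values covered nearly the whole range between sham and the highest WT array. The change was 3.35 (95% interval 1.28 to 5.41, limma adjusted p = 0.233) in WT and 1.85 (-0.22 to 3.91, adjusted p = 0.447) in Hsp72Tg. The order of the MCAO arrays differed from that of Il6: Hsp72Tg MCAO 2, highest for Il6, was second lowest for Il11, and Hsp72Tg MCAO 3 was highest.

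Lif, which supports neurons and oligodendrocytes and drives astrocyte activation, read 5.34 and 5.42 in WT sham and 5.23 and 5.28 in Hsp72Tg sham. It read 7.59, 7.92 and 8.002 in WT MCAO and 6.04, 8.34 and 7.69 in Hsp72Tg MCAO. On this kept probe set every MCAO array was above every sham array, and Hsp72Tg MCAO 1 was the lowest of the 6. The other probe set, 1450160_at, changed by 0.28 (SE 0.11) over both genotypes. It did not pass over all probe sets (limma adjusted p = 0.227). Its MCAO arrays read 5.10 to 5.58 and its sham arrays 4.93 to 5.17, with overlap. It lay under the lower quartile in 5 arrays, the 4 sham arrays among them. On the kept probe set the change over both genotypes was 2.28 (95% interval 1.48 to 3.08, limma adjusted p = 0.0271). In single genotypes it was 2.46 (adjusted p = 0.145) in WT and 2.10 (adjusted p = 0.321) in Hsp72Tg. The call over both genotypes was lost without any 1 of the 4 sham or 3 WT MCAO arrays, with adjusted p up to 0.116 and changes of 2.03 to 2.61 over the 10 fits that each left out an array.

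Osm, a cytokine of activated myeloid cells and the ligand of Osmr, read 6.54 and 6.36 in WT sham and 6.39, 6.45 and 6.62 in WT MCAO. In Hsp72Tg it read 6.38 and 6.29 after sham surgery and 6.41, 6.96 and 6.65 after MCAO. WT groups overlapped and Hsp72Tg groups did not, although Hsp72Tg MCAO 1 was above the higher sham array by 0.02. The change was 0.04 in WT and 0.34 (95% interval -0.0033 to 0.68) in Hsp72Tg, with limma adjusted p of 0.966 and 0.417. Their difference, 0.30 (95% interval -0.18 to 0.79), did not pass (adjusted p = 1). The receptor Osmr thus rose in both genotypes where its ligand, over both genotypes, was higher by 0.19 (95% interval -0.05 to 0.43, adjusted p = 0.378).

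Clcf1, a ligand of the ciliary neurotrophic factor receptor, gave readings that depended on the probe set. The kept probe set read 5.92 and 5.74 in WT sham, 6.09 and 5.92 in Hsp72Tg sham, 5.95, 6.33 and 6.55 in WT MCAO and 5.98, 6.12 and 6.84 in Hsp72Tg MCAO. Groups overlapped over both genotypes, and the change was 0.38 (95% interval -0.01 to 0.77, limma adjusted p = 0.275). The probe set 1437271_at read 5.40 and 5.54, 5.68 and 5.35, 6.70, 6.52 and 6.88, and 5.69, 6.56 and 6.85 in the same order of groups. There all MCAO arrays were above all sham arrays, Hsp72Tg MCAO 1 by 0.01. Its change over both genotypes was 1.04 (SE 0.20), and that of the probe set 1437270_a_at was 1.45 (SE 0.37). With every probe set tested on its own, neither passed in limma (adjusted p = 0.0545 and 0.0991). The probe set 1437270_a_at lay under the lower quartile in 6 arrays, the sham arrays among them.

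Osmr, the oncostatin M receptor chain, had the widest gap between the 6 MCAO and 4 sham arrays of the 9 measured members, although within WT the gap of Il6 was wider (3.30 against 2.81). It read 6.02 and 6.57 in WT sham and 6.46 and 6.54 in Hsp72Tg sham. It read 9.64, 9.38 and 9.56 in WT MCAO and 8.64, 9.72 and 9.78 in Hsp72Tg MCAO. The lowest MCAO array was 2.07 above the highest sham array. Group means from highest to lowest were 9.53 ± 0.13 (SD, n = 3) for WT MCAO, 9.38 ± 0.64 (n = 3) for Hsp72Tg MCAO, 6.50 ± 0.06 (n = 2) for Hsp72Tg sham and 6.29 ± 0.39 (n = 2) for WT sham, and neighbouring means of the same surgery did not differ beyond their spread. The limma adjusted p was 0.0107 in WT, 0.0259 in Hsp72Tg and 0.000746 over both genotypes. Over both genotypes the call held in all 10 fits that left out an array, with changes of 2.92 to 3.24. In WT it held in 5 of those 10 fits and was lost without WT sham 1, Hsp72Tg sham 1, Hsp72Tg sham 2, WT MCAO 1 or WT MCAO 3 (adjusted p up to 0.155). In Hsp72Tg it held in 1 of 10, the fit without Hsp72Tg MCAO 1, and adjusted p reached 0.607 in the others, while the change stayed between 2.68 and 3.25.

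The other Osmr probe sets differed from each other. The probe set 1418675_at read 5.79 and 5.65 in WT sham, 5.59 and 5.90 in Hsp72Tg sham, 7.29, 7.49 and 7.72 in WT MCAO and 7.22, 7.65 and 7.96 in Hsp72Tg MCAO. It rose by 1.82 (SE 0.15) over both genotypes, again without overlap, with a limma adjusted p of 0.00383 over all probe sets. The probe set 1459217_at lay under the lower quartile in all 10 arrays and changed by -0.05 (adjusted p = 0.799).

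**Figure D2:**
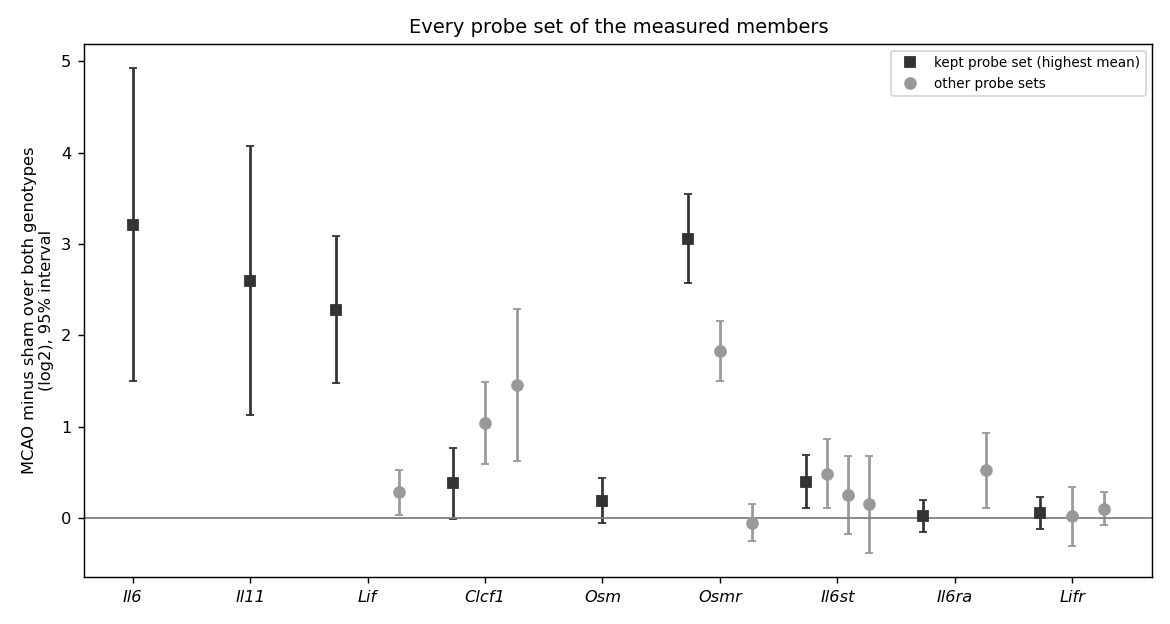
Change after MCAO over both genotypes (log2, vertical axis) with its 95% interval for every probe set of the 9 members (horizontal axis), squares for the kept probe set and circles for the others. For Osmr the kept probe set is at 3.06 and the others at 1.82 and -0.05, and for Clcf1 both other probe sets lie above the kept one.

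Il6st, which encodes gp130, read 9.18 and 9.45 in WT sham and 9.46 and 9.48 in Hsp72Tg sham. It read 9.68, 9.83 and 9.86 in WT MCAO and 9.42, 9.80 and 10.14 in Hsp72Tg MCAO. The 5 other MCAO arrays were above all sham arrays, and Hsp72Tg MCAO 1 was inside the sham range. The change over both genotypes was 0.39 (95% interval 0.11 to 0.68), which did not pass in limma (adjusted p = 0.142). Its other probe sets gave changes of 0.48, 0.25 and 0.15, all without passing, and on 2 of them WT MCAO 1 was the lowest array of all (7.36 on 1460295_s_at and 6.64 on 1421239_at).

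Il6ra, the interleukin-6 alpha chain, which can also be shed in soluble form, read 7.28 and 7.00 in WT sham and 7.24 and 7.01 in Hsp72Tg sham. After MCAO it read 7.12, 7.17 and 7.13 in WT and 7.14, 7.13 and 7.21 in Hsp72Tg, all inside the sham range. The change over both genotypes was 0.02 (95% interval -0.15 to 0.20). Its other probe set, 1452416_at, read 5.25 to 5.65 in sham arrays, 5.58 to 6.14 in WT MCAO and 5.66 to 6.62 in Hsp72Tg MCAO. There the change was 0.52 (SE 0.18) and did not pass (limma adjusted p = 0.188).

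Lifr, the chain that serves leukaemia inhibitory factor and ciliary neurotrophic factor, read 10.15 and 10.05 in WT sham and 9.93 and 10.02 in Hsp72Tg sham. It read 10.32, 9.98 and 10.19 in WT MCAO and 10.01, 10.08 and 9.95 in Hsp72Tg MCAO, so that MCAO and sham arrays overlapped in each genotype. Both Hsp72Tg sham arrays were below both WT sham arrays, and that difference did not pass in limma (-0.12, 95% interval -0.40 to 0.15, adjusted p = 1). The change after MCAO over both genotypes was 0.05 (95% interval -0.12 to 0.23), and that of the probe set 1425107_a_at was 0.10. That probe set lay under the lower quartile in 8 arrays, the 4 sham arrays among them, where it may read mainly background. On the probe set 1450207_at the changes had opposite signs, -0.29 (95% interval -0.75 to 0.16) in WT and 0.33 (-0.13 to 0.78) in Hsp72Tg, with 0.02 over both. It read 5.81, 5.91 and 6.27 in WT MCAO and 6.39, 6.96 and 6.32 in Hsp72Tg MCAO, which did not overlap. There Hsp72Tg minus WT was 0.56 (95% interval 0.16 to 0.97, unadjusted p = 0.0119), and it did not pass over all probe sets (limma adjusted p = 0.999). An unadjusted p under 0.05 was reached by 962 of 34945 probe sets, and the share without overlap was not counted. The difference was -0.15 (95% interval -0.37 to 0.07) on the kept probe set and 0.15 on 1425107_a_at. Osmr and Lifr lie on chromosome 15 with no protein-coding gene and 3 other genes between them in the RefSeq table of GRCm38.p6. Osm and Lif are direct neighbours on chromosome 11. In both pairs of neighbours 1 gene rose after MCAO and the other did not pass, although the difference between the genes was not tested.

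The members were graded in the array Hsp72Tg MCAO 1. Relative to the mean of the 4 sham arrays, Osmr in that array was up by 2.24, which is 69.7% of the 3.22 seen on average in the other 5 MCAO arrays. On the probe set 1418675_at the share was 78.9%. For Lif it was 27.9%, for Il11 8.96% and for Il6 -4.09%, the last being a value just under the sham mean. The Clcf1 probe sets 1437271_at and 1437270_a_at stood at 15.9% and 13.5%. These are values of a single array, with no replicate check. The Il6 values of that array and of the sham arrays lay under the lower quartile, where a probe set may read mainly background. No share was computed for probe sets with small changes, such as the kept one of Il6st, up by 0.02 against 0.47.

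Hsp72Tg MCAO 1 was singled out on these same values, as the MCAO array nearest to sham on the first principal component. It was also the lowest MCAO array for Il6, Lif, Il11, Osmr and Il6st. Leaving it out therefore favours larger changes and a smaller spread, and the calls below are a description, not an independent test. Without Hsp72Tg MCAO 1, 5 of 9 members passed over both genotypes, against 12.4% of all genes, all of them higher. Il6 then rose by 3.94 (SE 0.20), Lif by 2.61 (SE 0.14), Il11 by 3.01 (SE 0.53), Osmr by 3.24 (SE 0.11) and Il6st by 0.49 (SE 0.10). The limma adjusted p-values were 4.19e-06, 5.04e-06, 0.00666, 5.49e-07 and 0.0114. In WT 4 of 9 passed (2.54% of genes), Il6, Lif, Il11 and Osmr, with changes that are the same as before, since only the estimate of the spread had altered. In Hsp72Tg 3 of 9 passed (6.49% of genes), Il6, Lif and Osmr, with Il6 at 4.26 and adjusted p = 7.63e-05. All remaining MCAO arrays lay above all sham arrays in 5 of 9 members (6.98% of genes). When WT sham 1, the array with the cerebellar signal, was left out as well, 4 of 9 passed over both genotypes (6.47% of genes), Il6, Lif, Il11 and Osmr.

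**Figure D3:**
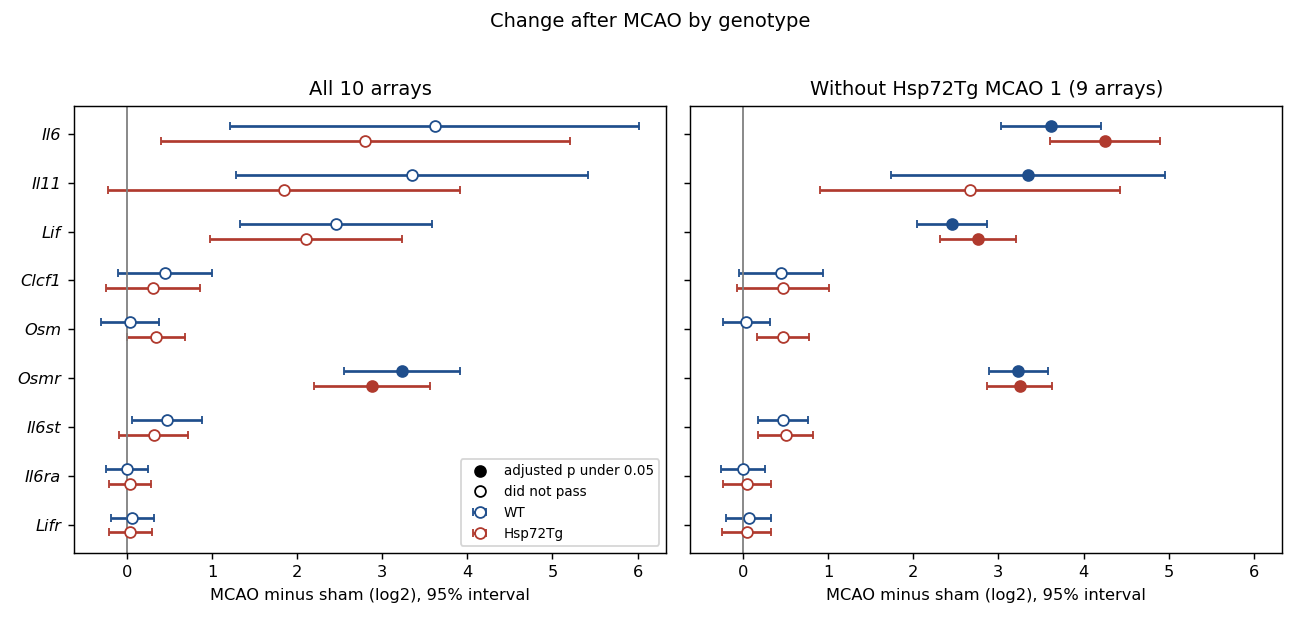
Change after MCAO (log2, horizontal axis) with its 95% interval for each member (vertical axis) in WT and Hsp72Tg, with all 10 arrays on the left and without Hsp72Tg MCAO 1 on the right, filled points for a limma adjusted p under 0.05. Osmr alone is filled on the left, and the intervals of Il6 and Lif narrow on the right.

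No member passed a test between genotypes. When the change after MCAO in WT was subtracted from that in Hsp72Tg, 0 of 9 members and 0.0% of all genes passed in limma, and 0 members and 319 genes had an unadjusted p under 0.05. The intervals were wide: -1.50 (95% interval -4.42 to 1.42) for Il11, -0.82 (-4.21 to 2.58) for Il6, -0.36 (-1.32 to 0.61) for Osmr and -0.35 (-1.95 to 1.24) for Lif. For Il6 these data therefore include both a much smaller and a much larger response in Hsp72Tg. Without Hsp72Tg MCAO 1 the differences were 0.64 for Il6, 0.30 for Lif, 0.01 for Osmr and -0.68 for Il11, so that Il6, Lif and Osmr changed sign. Without Hsp72Tg MCAO 2 they were -1.79 for Il6 and -0.84 for Lif. Without Hsp72Tg MCAO 3, the array with the highest Il11, the difference for Il11 was -2.59 (95% interval -4.35 to -0.83, unadjusted p = 0.00898, limma adjusted p = 0.999). The change of Il11 in Hsp72Tg was then 0.76 in place of 1.85. In that fit 661 genes had an unadjusted p under 0.05 for the difference of the changes. Leaving out the highest Il11 value of its group lowers that group's mean and spread, so this is a description, not an independent test.

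Between the MCAO groups, 0 of 9 members and 0.0% of genes passed, with 0 members and 487 genes at an unadjusted p under 0.05. Hsp72Tg minus WT was -1.37 (95% interval -3.21 to 0.48) for Il11, -0.92 (-3.07 to 1.22) for Il6, -0.48 (-1.49 to 0.53) for Lif and -0.15 (-0.76 to 0.46) for Osmr. Without Hsp72Tg MCAO 1 these became -0.55, 0.53, 0.18 and 0.22. Without Hsp72Tg MCAO 3 the value for Il11 was -2.45 (95% interval -3.64 to -1.27, unadjusted p = 0.00121), which did not pass over all genes (limma adjusted p = 0.431). That array was the highest for Il11, so leaving it out favours a lower value. In this fit 5 genes passed, and 1162 had an unadjusted p under 0.05. After sham surgery 0 of 9 members and 0.0% of genes passed, with 0 members and 283 genes at an unadjusted p under 0.05, and member differences lay between -0.13 (Lif) and 0.21 (Osmr). The 3 comparisons share arrays with one another. The adjusted p was 1 for every member in each of them.

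Genes around the receptors were read from 5 lists, each given as changes over both genotypes, where the median over all genes was -0.03 and 1.46% of all genes passed (12.4% without Hsp72Tg MCAO 1). The remaining ligands and receptors of the family gave 0 of 8 measured genes that passed, with a median of -0.01. The largest values were 0.15 (SE 0.12) for Lepr, the leptin receptor, and -0.15 (SE 0.09) for Ctf1, cardiotrophin 1. Il11ra1, the alpha chain for interleukin-11, was among the 4 genes of the list without a probe set of their own.

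Among signal transducers 2 of 10 rose and none fell, with a median of 0.12. Stat3, the main transcription factor downstream of gp130, read 8.76 to 9.08 in the sham arrays. It read 10.08, 10.09 and 10.28 in WT MCAO and 9.49, 10.24 and 10.40 in Hsp72Tg MCAO. No MCAO array overlapped with sham. Stat3 rose by 1.17 (SE 0.16, limma adjusted p = 0.0176), and the adaptor Shc1 by 0.46 (SE 0.09, adjusted p = 0.0396). Leaving out 1 array ended the call in 6 of 10 fits for Stat3 (adjusted p up to 0.109) and in 7 of 10 for Shc1 (up to 0.158), in each case an array of the sham or WT MCAO groups. The exception in those groups was Hsp72Tg sham 2, without which Stat3 still passed.

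Of 12 feedback inhibitors 1 rose, Socs3, and the median was 0.08. Socs3, which binds gp130 and blocks its kinases, read 7.13 to 7.24 in sham arrays, 9.63, 9.42 and 9.73 in WT MCAO and 8.02, 10.38 and 9.87 in Hsp72Tg MCAO. The rise was 2.35 (SE 0.37, limma adjusted p = 0.0274) without overlap between the surgeries. It lost its call without any 1 of the sham or WT MCAO arrays (adjusted p up to 0.119). With the replicate number as a block, Stat3, Shc1 and Socs3 did not pass (adjusted p = 0.0577, 0.162 and 0.111). Without Hsp72Tg MCAO 1, 4 of 12 passed.

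STAT3 target genes were the list with the highest median, 1.45, and 19 of 20 were higher in value after MCAO. Of the 20, 9 rose and none fell: Socs3, Bcl3, Cebpb, Cebpd, Timp1, Lrg1, Serpina3n, Lcn2 and Gfap. Many of these genes also answer to other signals of injury, and the list is no measure of STAT3 activity. The iron-binding protein Lcn2 rose by 4.38 (SE 0.84, adjusted p = 0.0428), the protease inhibitors Timp1 by 2.93 (SE 0.39, adjusted p = 0.014) and Serpina3n by 2.63 (SE 0.27, adjusted p = 0.00542), and the transcription factor Cebpd by 2.35 (SE 0.33, adjusted p = 0.0174), all in limma. In WT 2 of 20 passed and in Hsp72Tg 0 of 20, against 0.055% and 0.022% of all genes. The count of 9 depended on single arrays: it was 17 without Hsp72Tg MCAO 1 and 0 without Hsp72Tg sham 1, and between 2 and 9 without any other array. With the replicate number as a block it was 1, and with array weights 15. Serpina3n was the exception among the 4 named, with an adjusted p of 0.0506 without Hsp72Tg sham 1 and calls in the other 9 fits. Timp1 kept its call in 5 of 10 fits, Cebpd in 3 and Lcn2 in 2, and the highest adjusted p of the 3 was 0.16. The fits without Hsp72Tg MCAO 1 or Hsp72Tg MCAO 2 kept all 4 calls.

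Of 4 genes for the shedding of receptors, none passed, with a median of 0.25. The inactive rhomboid Rhbdf1 changed by 0.67 (SE 0.14, limma adjusted p = 0.0563) and the protease Adam17, which can release the interleukin-6 receptor from cells, by 0.33 (SE 0.11, adjusted p = 0.151). Without Hsp72Tg MCAO 1, 1 of the 4 passed.

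**Figure D4:**
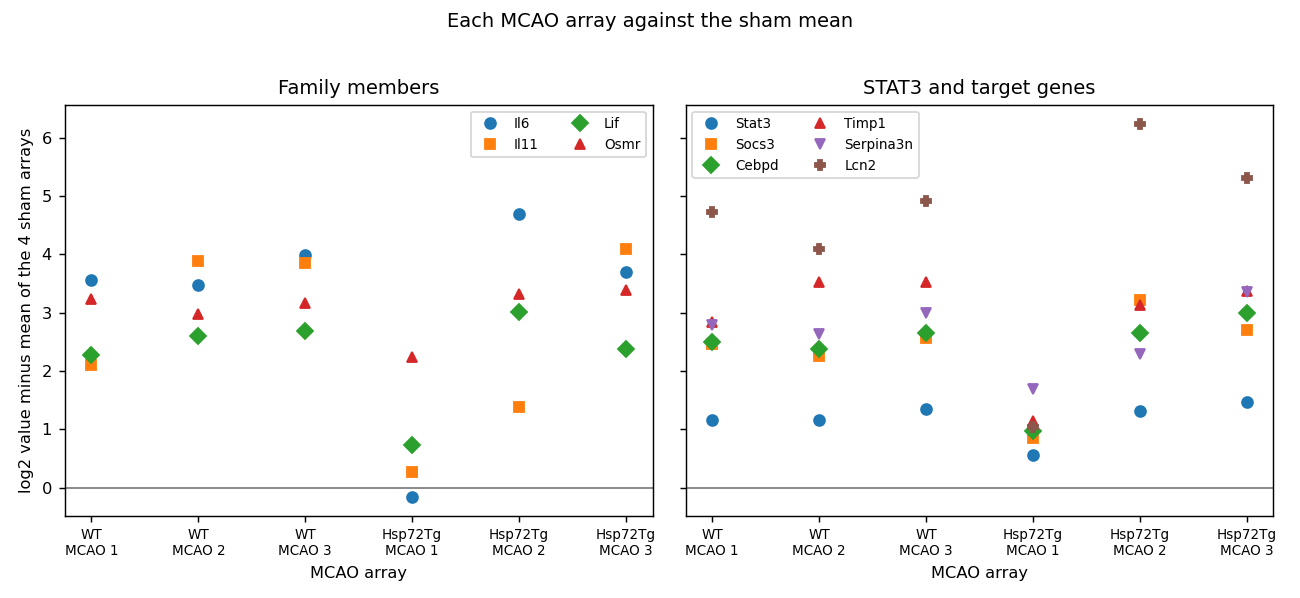
Log2 value in each of the 6 MCAO arrays (horizontal axis) minus the mean of the 4 sham arrays (vertical axis), for Il6, Il11, Lif and Osmr on the left and for Stat3 and 5 STAT3 target genes on the right. In Hsp72Tg MCAO 1 Osmr stands at 2.24 and Il6 at -0.16, and the STAT3 target genes shown lie between zero and their values in the other MCAO arrays.

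The genes most like a member were those with the smallest root mean square difference over the 10 arrays, after each gene's own mean was subtracted. Clone and predicted names were passed over, by a pattern that also left out genes named with C followed by digits. For Lif the nearest of the genes ranked was Socs3, at 0.19. The transporter Slc15a3 (0.30), Cebpd (0.31), the matrix protein Tgfbi (0.32) and the transglutaminase Tgm2 (0.33) followed. In Hsp72Tg MCAO 1 Socs3 read 8.02, between its sham and other MCAO values, as Lif did. For Osmr the nearest were the small heat shock protein Hspb1 (0.32), the hyaluronan receptor Cd44 (0.39), Serpina3n (0.41), the protease Adamts1 (0.43) and Cebpd (0.44). Hspb1 read 11.28 in Hsp72Tg MCAO 1, against 8.93 to 9.38 in sham arrays and 11.68 to 12.83 in the other MCAO arrays.

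For Il6 the differences ran from 0.43 to 0.64. The measure is not scaled to the size of a gene's change, so its values do not rank the members by likeness. The nearest genes were the membrane protein Emp1 (0.43), the lipopolysaccharide co-receptor Cd14 (0.43), the chemokines Ccl9 (0.60) and Ccl2 (0.64) and the galectin Lgals3 (0.64). All 5 read higher in Hsp72Tg MCAO 1 than in any sham array, as with Emp1 at 6.42 against at most 5.87, where Il6 did not. Il11 was added after its values were seen: its nearest gene was Arg1 (0.50), which read 5.60, 7.59 and 7.28 in WT MCAO and 4.61, 4.85 and 8.42 in Hsp72Tg MCAO. Tgm1 (0.52) and the matrix metalloproteinase Mmp3 (0.56) followed. The likeness is over arrays that share the contrast of MCAO with sham, and it is a description with no test.

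Means of neutrophil, monocyte and endothelial markers were higher in 5 MCAO arrays than in the sham arrays. In Hsp72Tg MCAO 1 the neutrophil and monocyte means were inside the sham range, and the endothelial mean was above it. The mean log2 value of 8 neutrophil markers was 5.71 to 6.55 in sham arrays, 6.60 to 7.49 in 5 MCAO arrays and 5.91 in Hsp72Tg MCAO 1. S100a8 and S100a9 had the largest changes of the 8 over both genotypes, 2.38 (SE 0.78) and 2.49 (SE 0.78), while the other 6 lay between -0.11 (Ltf) and 0.27 (Ngp) and the median was 0.12. None of the 8 passed, or 2 without that array, where 1.46% and 12.4% of all genes passed. For 5 monocyte markers the values were 5.84 to 6.08, 6.16 to 7.11 and 6.06, with none passing, or 2 without that array. F10 lay under the lower quartile in all arrays. Chil3 (1.69, SE 0.63) and Lyz2 (0.76, SE 0.35) had the largest monocyte changes, and the others lay between 0.12 (Ccr2) and 0.28 (F10). Endothelial markers (6 genes) were at 7.29 to 7.68, 7.79 to 8.45 and 7.90, and 2 of 6 rose, Cldn5 and Pecam1. Tek was lower in value (-0.25, SE 0.28) without passing. The part of these cells in the changes of Il6, Il11, Lif and Osmr was not tested.

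Astrocyte markers differed less between arrays, with means over 6 genes of 11.11 to 11.23 in sham arrays, 11.20 to 11.49 in 5 MCAO arrays and 11.13 in Hsp72Tg MCAO 1, and 0 of 6 passed. Microglial markers (5 genes) were at 8.44 to 8.99, 7.87 to 8.64 and 8.84, and none passed, or 2 fell without Hsp72Tg MCAO 1. Neuronal markers (6 genes) were at 12.47 to 12.54 in sham arrays, 12.13 to 12.38 in 5 MCAO arrays and 12.48 in Hsp72Tg MCAO 1, which was thus inside the sham range as Il6 was. None of the 6 passed, or 3 fell without that array. Mural and fibroblast markers (6 genes) were at 8.47 to 8.81, 8.88 to 9.16 and 8.55, with 0 of 6 passing, or 2 without Hsp72Tg MCAO 1.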

How the data were processed

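The authors deposited log2 expression values, which the submitters' processing notes credit to RMA (background correction, normalization between arrays and summary of probes) without a version. They ran from 3.49 to 14.73, with array medians of 6.67 to 6.73. No scanner files were used here, so no detection flag was applied, and the number of arrays limits the precision. Of 45101 probe sets, 64 controls, 932 with several symbols and 9160 not listed in the platform annotation were left out, and 34945 with 1 symbol gave 18193 genes through the probe set with the highest mean.

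Changes were tested with limma 3.58.1 (R 4.3.3) across all 10 arrays with 4 group means (6 residual degrees of freedom, prior 3.72), two-sided, Benjamini-Hochberg over all genes. The comparisons of MCAO with sham were also run on simulated data with independent normal noise and no outlying array. That check cannot judge calls that depend on single arrays. Named genes were all members, of each pathway list up to 4 genes that passed or else up to 2 with the largest change, and the 5 genes most like Il6, Lif and Osmr. The members, lists and marker genes were chosen with earlier results of these data known. Alternatives were the replicate block, only the groups compared, eBayes options, array weights, 2 normalizations, other handling of probe sets, a filter on dim ones and left-out arrays.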

Additional observations from a re-analysis of the deposited data

Results flagged for a closer look

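Cntf, ciliary neurotrophic factor, was read by a single probe set, 1422033_a_at, that the annotation also assigns to Gm44505 and Zfp91, so it was in no comparison of the report. It was noticed because the WT MCAO arrays, at 7.18, 7.33 and 7.39, all lay above the WT sham arrays, at 6.93 and 6.99. The difference of means was 0.341. Such a separation within WT was also found in 16.4% of the 18193 measured genes, so it does not set this probe set apart. In Hsp72Tg the sham arrays read 7.00 and 7.00 and the MCAO arrays 6.91, 7.51 and 7.52, so that Hsp72Tg MCAO 1 was below sham. Which of the 3 genes the probe set reads was not tested. Groups of 2 and 3 arrays were too small for a check of single outlying arrays.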

How the results depend on the processing

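Osmr over both genotypes passed under each alternative run. Member counts (main values 1 in WT, 1 in Hsp72Tg and 2 over both genotypes) moved as follows. The labels do not say whether a replicate number is shared between groups. Correlations of same-numbered deviations from the group means ran from -0.16 to 0.25. No differently numbered arrays were compared, so these values cannot decide whether the numbers pair the arrays. With the replicate number as a block, 0 members passed in WT, 0 in Hsp72Tg and 1 over both genotypes (Osmr), and 0, 0 and 19 of all genes against 10, 4 and 266. With only the arrays of the groups compared, 4 members passed in WT and 0 in Hsp72Tg, with 955 and 0 genes, and 3 genes between the sham groups against 0. Array weights gave 5 members in WT and 4 over both genotypes, with 1358 and 1116 genes. Every probe set on its own gave 0 members in Hsp72Tg, with 18 probe sets in WT and 0 in Hsp72Tg. The mean over probe sets gave 6 genes in WT. Over both genotypes the STAT3 target genes that rose, 9 of 20, were 1 with the block and 15 with array weights, the signal transducers, 2 of 10, were 0 and 3, and the feedback inhibitors, 1 of 12, were 0 and 2. Without Hsp72Tg MCAO 1 and WT sham 1 together, 3 members passed in WT, 3 in Hsp72Tg and 4 over both, with 148, 780 and 1177 genes, and 1 gene for the difference of the changes and 2 between the sham groups, against 0 each. Leaving out 1 array at a time gave 0 to 4 members in WT, 0 to 3 in Hsp72Tg and 1 to 5 over both, with 0 to 463, 0 to 1181 and 11 to 2251 genes, and 0 to 2, 0 to 5 and 0 to 3 genes for the difference of the changes, between the MCAO groups and between the sham groups. The highest of the MCAO counts came without Hsp72Tg MCAO 1.

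Signs turned for small changes. In WT, Il6ra changed by -0.0089 with the replicate block, -0.0083 with quantile normalization and -0.0046 with median centring, against 0.0010, and Lifr by -0.068 as a mean over probe sets. With arrays left out, Osm in WT ran from -0.051 to 0.13, Lifr from -0.013 to 0.16 in WT and -0.0019 to 0.082 in Hsp72Tg, and Il6ra from -0.14 to 0.14 in WT, -0.074 to 0.16 in Hsp72Tg and -0.049 to 0.096 over both. For the difference of the changes, the ranges were -1.79 to 0.76 for Il6, -0.84 to 0.34 for Lif and -0.63 to 0.29 for Osmr. Between the MCAO groups they were -1.90 to 0.53 for Il6, -0.97 to 0.18 for Lif and -0.34 to 0.22 for Osmr, which was also 0.024 as a mean over probe sets. These values turned positive without Hsp72Tg MCAO 1, alone or with WT sham 1. The cause was not tested.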
